A study of Rattus norvegicus with 10 samples.

Results

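Antigen presentation and macrophage genes were followed in the choroid plexus, the vascularised epithelial tissue of the brain ventricles, of female Wistar rats on a control diet or a high fat diet (HFD). The list held 10 genes: B2M, CD74, RT1-DA, RT1-BA, RT1-DB1, LYZ2, C1QA, C1QB, CTSS and TYROBP. A listed gene was used when its symbol stood beside an Ensembl identifier in the table of transcribed genes of the study, of which a shortened copy with the 1997 most abundant genes was at hand. By this rule 4 of the 10 genes were linked to the files, namely B2M, CD74, RT1-DA and LYZ2, out of 32883 genes in all. The other 6 (RT1-BA, RT1-DB1, C1QA, C1QB, CTSS and TYROBP) were not found in that copy and were not analysed here, so that no value is given for them. Since the copy is cut by abundance, the 4 linked genes are the abundant end of the list, and macrophages were represented by LYZ2 alone.

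RNA sequencing covered 10 rats aged 27 weeks, with 1 library per rat, from plexus tissue of several ventricles. The 5 control rats had received a nutrient source-matched diet with 10% of its energy from fat and the 5 HFD-fed rats a diet with 60%, both for 21 weeks. The study took control rats below and HFD-fed rats above a weight limit, so that diet and body weight cannot be told apart. The authors deposited TPM, a scale on which the level of a gene is its share of all transcripts after correction for transcript length. A nominal output of 12 Gb was stated for the sequencing, but TPM keep no read number, and the depth reached in each rat is therefore unknown. Transthyretin (TTR), the defining secretory product of choroid plexus epithelium, took 32.2% to 39.7% of all TPM in the 10 rats.

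Every nucleated cell can show peptides from its own proteins on MHC class I molecules, whose variable heavy chain pairs with the invariant light chain beta-2-microglobulin (B2M). MHC class II molecules, by contrast, present peptides from engulfed material and are made mainly by macrophages, dendritic cells and B cells, where the invariant chain CD74 holds the groove until peptides are loaded in the endosome. The rat MHC is called RT1. RT1-DA encodes the alpha chain of a class II molecule, while RT1-A1, RT1-A2, RT1-S3 and RT1-CE5 encode class I heavy chains. LYZ2 encodes lysozyme, an enzyme that cuts bacterial cell walls and is secreted by macrophages and other myeloid cells. The choroid plexus is known to hold resident macrophages in its stroma and on its ventricular surface.

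Short promoter windows are shown for the known elements they hold and because some share long runs of bases with another gene. They were taken from RefSeq on the build GRCr8, with positions counted back from the transcription start, and all 4 linked genes were matched by symbol. The core of the X box, a known element of class II promoters, was searched on both strands as AGCAAC and is in capitals below.
RT1-DA: aaacctttccctAGCAACagatgtgttggt
CD74: cagttccacattAGCAACgtgggcggagtg
The RT1-DA window lies at chr20:4515320-4515349 on the plus strand with the match beginning at position -83, and the CD74 window at chr18:56527123-56527152 on the plus strand with the match beginning at -71. These letters were found in 14.7% of 33469 promoters of the same length, and in neither the B2M nor the LYZ2 promoter. CCAAT, the letters of the Y box of class II promoters, was searched on both strands. The letters were found in CD74 at -189, in RT1-DA at -49 and also in B2M at -64, and in 37.5% of all promoters. They lay downstream of the X box match in RT1-DA but upstream of it in CD74, so that a Y box is not shown for CD74.

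In B2M the core of the interferon-stimulated response element, searched on both strands as GAAA, any 2 bases and GAAA again, was found in the 30 bases at chr3:129549170-129549199 on the plus strand, with the match in capitals beginning at -150.
B2M: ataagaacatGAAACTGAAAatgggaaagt
This element was present in 3.92% of all promoters. It was also found in the promoter of the class I gene RT1-S3, on the opposite strand at -112, and in none of the CD74, RT1-DA, LYZ2, RT1-A1, RT1-A2 and RT1-CE5 windows of the same length.

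RefSeq lists 2 lysozyme genes in the rat, Lyz2 and Lyc2, and the name LYZ2 is also a synonym of the second. The last 30 bases before the start were the same letters in both, at chr7:54798012-54798041 on the minus strand for Lyz2 and at chr7:54772979-54773008 on the plus strand for Lyc2.
Lyz2: gcttaaatagcaggcaggctttctctagtc
Lyc2: gcttaaatagcaggcaggctttctctagtc
Within the windows compared the run of identical bases was 89 bases long, beginning at position -39 and running past the start in both. It may go on beyond the windows. Only these windows were compared, not the transcripts. Where transcripts are alike, reads can be split between copies by the quantification. Which copy the value called LYZ2 stands for was not tested and is uncertain.

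One library was unlike the rest, that of control rat 1. The mean effective length of its transcripts was 789 bases, where the remaining 9 rats had 874 to 968. In that rat 1842 genes differed by more than 2-fold from the median level of the remaining rats, and in any other rat 171 to 235 genes did. To compare rats, TPM were divided by a scaling factor per rat, the median ratio to the geometric mean over all rats. The factor was 0.747 in control rat 1 and between 0.944 and 1.128 elsewhere. The quotient is termed rescaled TPM, and results are given with and without control rat 1.

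The diet difference of none of the 4 linked genes exceeded the spread between rats. Their levels overlapped between the diets, and the means differed by at most 1.19-fold by limma. With limma on log2(rescaled TPM + 0.1), 0 of the 4 had an unadjusted p under 0.05, where 8.59% of the 12198 genes tested did (3.76% higher and 4.83% lower in HFD-fed rats), and 0 had a Benjamini-Hochberg adjusted p under 0.05, where 0% of all genes did. The same counts were 0 and 0 without control rat 1, where 11.7% of all 12270 genes had an unadjusted p under 0.05 (5.41% higher and 6.33% lower). All 4 genes overlapped in both fits, where 3.42% and, without control rat 1, 4.95% of all genes did not. The median log2 fold change of the 4 genes was 0.10, against 0.01 over all genes tested, and 0.04 without control rat 1, against 0 over all genes. It was 0.18 without HFD rat 5, and 0.21 in TPM as deposited, against 0.12 over all genes on that scale.

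**Figure D1:**
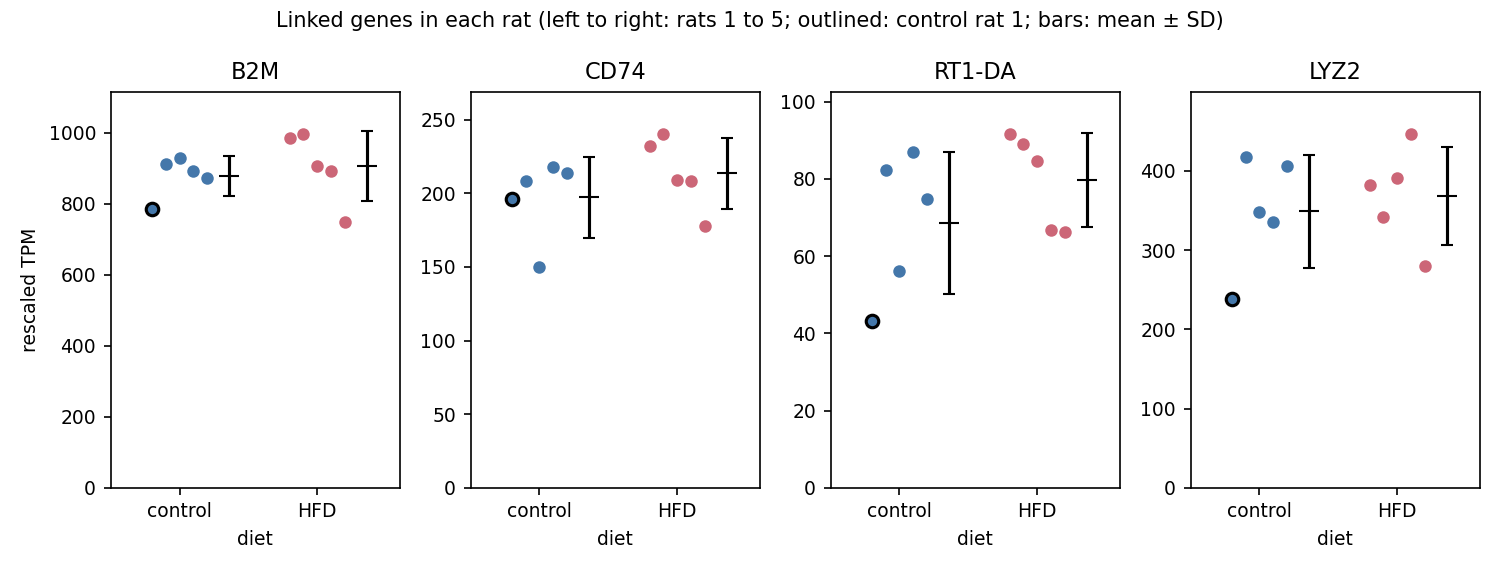
Rescaled TPM (y axis, from 0) of the 4 linked genes in each control rat and each HFD-fed rat, with 1 point per rat in the order of rat number and the mean ± SD of 5 rats beside the points. The diets overlapped for every gene, control rat 1 (outlined) was the lowest of the 10 rats for RT1-DA at 43.3 and LYZ2 at 238, and HFD rat 5 was the lowest HFD-fed rat for all 4 genes.

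B2M, the light chain shared by class I molecules, was the most abundant of the 4 and stood at rank 103 of all genes by mean level. Its rescaled TPM in control rats 1 to 5 were 786, 912, 929, 892 and 873. In HFD-fed rats 1 to 5 they were 987, 996, 907, 892 and 749.7. The control rats lay within the range of the HFD-fed rats, whose lowest and highest values were also the lowest and highest of all. The means were 878 ± 55.6 in the control group and 906 ± 99.2 in the HFD group (SD, n = 5 each). The log2 fold change was 0.04 with a standard error of 0.09 (limma, adjusted p = 0.845), and the 95% interval of the fold ran from 0.899 to 1.18. Without control rat 1 the control mean was 901 ± 24.3 (SD, n = 4) and the interval ran from 0.882 to 1.13, centred on a fold of 1.00.

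CD74, the invariant chain of class II molecules, had rescaled TPM of 196, 208, 150.2, 218 and 214 in control rats 1 to 5. It had 232, 239.9, 209, 208 and 178 in HFD-fed rats 1 to 5. Control rat 3 was the lowest of the 10 rats, the 2 highest values were those of HFD rats 1 and 2, and the other 7 rats lay between 178 and 218. The means were 197 ± 27.7 in the control group and 213 ± 24.3 in the HFD group (SD, n = 5 each), with a log2 fold change of 0.12 ± 0.12 (standard error, limma adjusted p = 0.663) and a 95% interval of the fold of 0.909 to 1.3. The log2 fold change was also 0.12 without control rat 1, with an adjusted p of 0.741 by limma, while without control rat 3, the lowest rat, it was 0.02.

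RT1-DA, the class II alpha chain, was the least abundant of the 4. Its rescaled TPM in control rats 1 to 5 were 43.3, 82.2, 56.2, 86.9 and 74.8. In HFD-fed rats 1 to 5 they were 91.5, 89.0, 84.5, 66.8 and 66.3. Control rats 1 and 3 lay below every HFD-fed rat, while the other 3 control rats lay among them. The means were 68.7 ± 18.4 in the control group and 79.6 ± 12.2 in the HFD group (SD, n = 5 each), the largest of the 4 genes as a fold, with a log2 fold change of 0.25 ± 0.19 (standard error, limma adjusted p = 0.616). Much of this difference came with control rat 1. Without it the control mean was 75.0 ± 13.5 (SD, n = 4), the log2 fold change was 0.09 ± 0.14 (standard error, limma adjusted p = 0.85) and the 95% interval of the fold ran from 0.852 to 1.33.

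LYZ2 (lysozyme) had rescaled TPM of 238, 417, 348, 335 and 406 in control rats 1 to 5. HFD-fed rats 1 to 5 had 382, 342, 391, 446 and 279.7. Control rat 1 was the lowest and HFD rat 5 the next lowest, and the remaining rats of both diets were interleaved between 335 and 446. The means were 349 ± 71.6 in the control group and 368 ± 61.9 in the HFD group (SD, n = 5 each), with a log2 fold change of 0.09 ± 0.16 (standard error, limma adjusted p = 0.817). The direction turned without control rat 1. The control mean was then 377 ± 41.2 (SD, n = 4), the log2 fold change was -0.04 ± 0.13 (standard error, limma adjusted p = 0.917) and the fold had a 95% interval of 0.799 to 1.18.

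**Figure D2:**
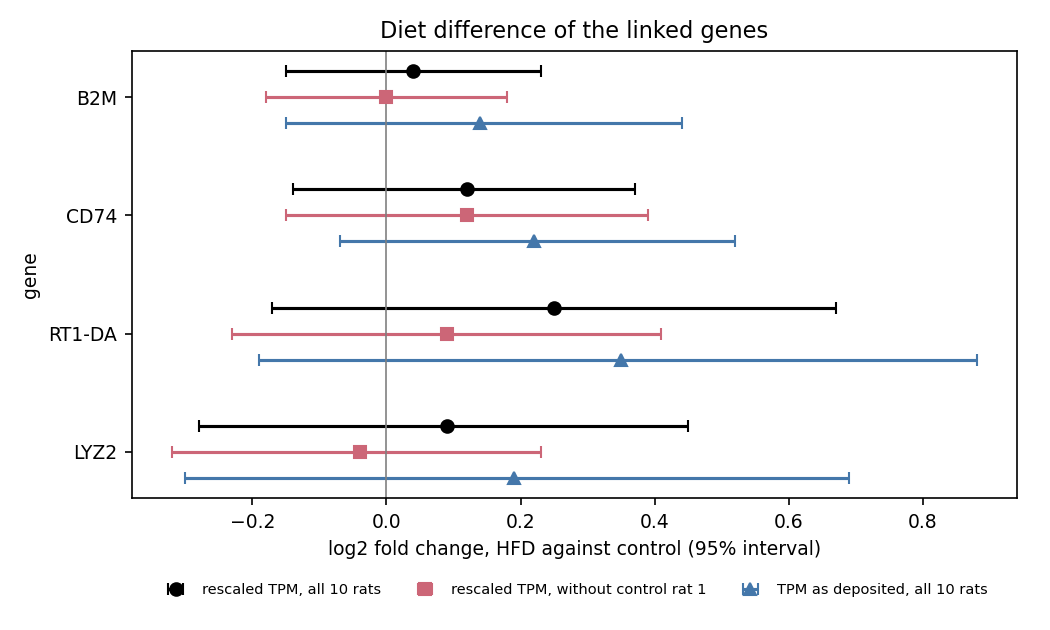
Log2 fold change of HFD-fed against control rats (x axis, with 95% intervals from limma) of the 4 linked genes, from rescaled TPM of all 10 rats, from rescaled TPM without control rat 1 and from TPM as deposited. All 12 intervals contain 0, and the point of RT1-DA moves from 0.25 to 0.09 without control rat 1.

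TPM as deposited, without the rescaling, placed all 4 genes higher in HFD-fed rats, with log2 fold changes of 0.14 for B2M, 0.22 for CD74, 0.35 for RT1-DA and 0.19 for LYZ2. On the same scale without control rat 1 they were 0.01, 0.13, 0.10 and -0.03. With all 10 rats the median over all genes was 0.12 on that scale. None of the 4 had an unadjusted p under 0.05 by limma, where 5.11% of all genes did (3.85% higher and 1.26% lower), and all 4 overlapped between the diets, where 1.65% of all genes did not. In TPM as deposited control rat 1 was the lowest of all 10 rats for each of the 4 genes. This was common in that rat, since it was the lowest for 60.9% of the 6272 genes whose rescaled TPM averaged 10 or more. After rescaling it was the lowest for 31.0% of these genes, RT1-DA and LYZ2 among them, and the highest for 41.4%.

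The order of the levels was B2M, LYZ2, CD74 and RT1-DA in each of the 10 rats. Ratios of 2 genes within a rat do not depend on the scaling between rats. LYZ2 was 1.22 to 2.32 times as abundant as CD74, both of these extremes being control rats, 1 and 3. RT1-DA stood at 0.321 to 0.404 of the level of CD74 in 9 rats and at 0.221 in control rat 1. The ratio of CD74 to B2M was nearly even in HFD-fed rats, at 0.23 to 0.241, and ran from 0.162 in control rat 3 to 0.249 in control rat 1 among control rats. The wider range of the control rats came from rat 3 alone, since the others had 0.228 to 0.249.

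The 4 genes differed in how much they varied between rats of the same diet. The standard deviation of log2 values within the diets was 0.13 for B2M, 0.20 for CD74, 0.29 for LYZ2 and 0.34 for RT1-DA, against a median of 0.17 over the same 6272 genes. Without control rat 1 that median fell to 0.11, while B2M had 0.13, CD74 0.21, LYZ2 0.22 and RT1-DA 0.25. In those 9 rats RT1-DA had a larger spread than 92.3% of the genes, LYZ2 than 89.5%, CD74 than 88.7% and B2M than 64.0%. In bulk tissue, fewer cells of a type and less RNA per cell cannot be told apart.

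Across rats, with values centred within each diet, CD74 and RT1-DA had a Pearson's r of 0.62 over 10 rats and 0.89 over the 9 rats without control rat 1. Of those 9 rats, control rat 3 was the lowest and HFD rat 5 the next lowest for both genes. LYZ2 and RT1-DA had an r of 0.60 over 10 rats and 0.17 over the 9 rats, and LYZ2 and CD74 had 0.27 and 0.39. B2M had 0.62 with RT1-DA and LYZ2 and 0.41 with CD74 over 10 rats, and 0.46 to 0.47 with these 3 genes over 9 rats. These correlations describe few rats, and the points share the library and its scaling.

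The named genes with the pattern most like each linked gene were taken from the 1991 of these 6272 genes that carried a name. For RT1-DA they included CTSC, with an r of 0.96 over 10 rats and 0.94 over 9 rats. CTSC encodes cathepsin C, a lysosomal protease that activates the granule proteases of immune cells. The gene most like RT1-DA over 9 rats was EEF1G (0.96), followed by PKM (0.95), which also led for CD74 (0.93). For B2M it was CSTB, the protease inhibitor cystatin B, with 0.92 over 10 rats and 0.95 over 9 rats. For LYZ2 it was FOPNL in both, with 0.95 and 0.90. The measure is a description, taken as the highest of 1991 values over few rats.

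RT1-A1, a class I heavy chain to which B2M binds, had a standard deviation of log2 values within the diets of 1.85, larger than in 99.6% of the 6272 genes. It had rescaled TPM of 9.21, 98.6, 101, 100.3 and 97.0 in control rats 1 to 5. In HFD-fed rats 1 to 5 it had 102, 7.23, 91.2, 5.56 and 87.6. Control rat 1 and HFD rats 2 and 4 were thus below 10, and the other 7 rats were between 87.6 and 102, with no rat in between. The low rats were of both diets, and the diet difference was a log2 fold change of -0.95 with a 95% interval of -3.18 to 1.28 (limma adjusted p = 0.684). Without control rat 1 it was -1.63, with a 95% interval of -3.61 to 0.35 (limma adjusted p = 0.503).

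LOC103690108, known here by its symbol alone, was the named gene most like RT1-A1, with an r of 0.97 over 10 rats. It was looked at after its values were seen. It had rescaled TPM of 7.53, 343, 296, 329.8 and 303 in control rats 1 to 5. HFD-fed rats 1 to 5 had 335, 6.38, 257, 0.309 and 313. The same 3 rats were therefore at the bottom for both genes. These 3 rats did not stand together in B2M. In rescaled TPM, HFD rat 2 had the highest B2M of all 10 rats at 996, HFD rat 4 had 892 and control rat 1 had 786. In TPM as deposited they had 943, 980.3 and 587, the last being the lowest of the 10 rats.

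The other class I heavy chains, described after their values were seen, differed less between rats. RT1-A2 ran from 60.8 to 72.8 in 9 rats and was highest in control rat 1 at 85.2, but in TPM as deposited that rat had 63.6, within the 57.4 to 78.5 of the others. RT1-S3, a nonclassical class I gene, ran from 53.8 to 71.3 in the 7 rats with high RT1-A1 and was 40.4, 47.4 and 36.9 in control rat 1, HFD rat 2 and HFD rat 4, without overlap. Its r with RT1-A1 was 0.90 over 10 rats, the next highest after that of LOC103690108, and over 9 rats it was not among the 5 most alike genes. RT1-CE5 ran from 38.5 to 76.1, with control rats 1, 4 and 5 and HFD rat 2 above 60 and the other 6 rats between 38.5 and 47.9. None of these 3 genes differed between the diets beyond the spread between rats, with limma adjusted p of 0.784 for RT1-A2, 0.746 for RT1-S3 and 0.576 for RT1-CE5.

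**Figure D3:**
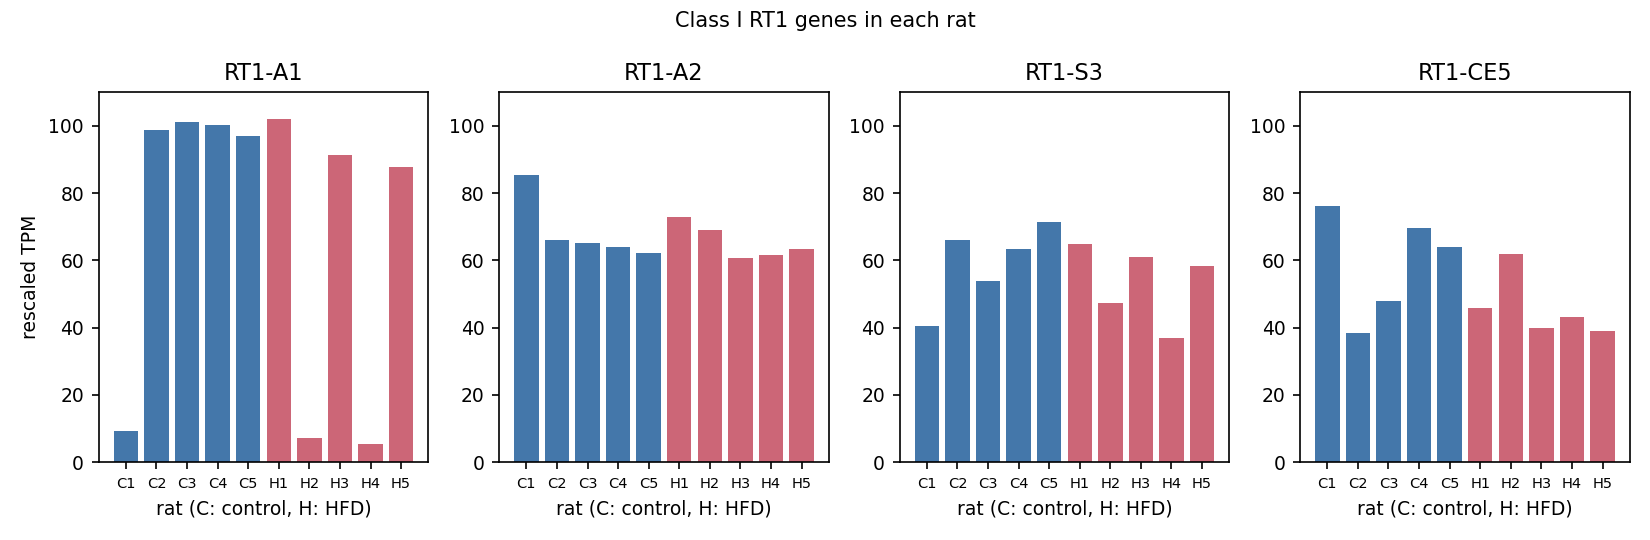
Rescaled TPM (y axis, from 0) of 4 class I heavy chain genes in each rat, with 1 bar per rat, control rats C1 to C5 in blue and HFD-fed rats H1 to H5 in red. RT1-A1 is below 10 in C1, H2 and H4 and between 87.6 and 102 in the other 7 rats, while RT1-A2 stays between 60.8 and 85.2.

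Class I heavy chain genes are near-identical copies of each other and differ between individuals, and reads can be assigned to the wrong copy. The RefSeq windows around the starts of RT1-A1 and RT1-A2 share a run of 71 identical bases, which may go on beyond the windows. It begins at -21 in RT1-A1 and at -70 in RT1-A2, and in RT1-A1 it lies mostly past the start. The 30 bases below hold the paired CCAAT letters (the Y box, searched on both strands, here read first as its reverse complement) in capitals, at chr20:4907177-4907206 for RT1-A1 and chr20:4872790-4872819 for RT1-A2, both on the plus strand.
RT1-A1: cATTGGgtgctgtgaaccctgtgaaCCAAT
RT1-A2: cATTGGgtgccgtgaaccctgtgaaCCAAT
CCAAT was present in 37.5% of all promoters. The transcripts were not compared, and which heavy chain was counted as RT1-A1 is uncertain. Whether the low values come from the animals' alleles or from the assignment of reads was not tested.

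Of a list of 29 class I genes, 11 were linked, and 1 of them had an unadjusted p under 0.05 by limma, a share near the 8.59% of all genes. This was PSMB9, an interferon-inducible proteasome subunit that helps to cut peptides for class I. PSMB9 had rescaled TPM of 55.1, 53.8, 51.6, 52.6 and 53.0 in control rats 1 to 5. In HFD-fed rats 1 to 5 it had 46.6, 45.7, 45.3, 44.9 and 51.3. The diets did not overlap, which was so for 3.42% of all genes, although HFD rat 5 came within 1 TPM of control rat 3. The log2 fold change was -0.19 ± 0.06 (standard error, limma unadjusted p = 0.00704, adjusted p = 0.542), and -0.18 without control rat 1 (adjusted p = 0.265). With TPM as deposited the diets overlapped and the log2 fold change was -0.08 (limma unadjusted p = 0.473), on a scale where the median of all genes was 0.12 in place of 0.01. The median log2 fold change of the 11 genes was -0.14, with -0.06 without control rat 1 and -0.03 in TPM as deposited.

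The proteasome activator PSME1 had 243 ± 14.6 on the HFD and 286 ± 58.4 on the control diet (SD, n = 5 each), with 390.3 in control rat 1. PSME2, its partner, named after its values were seen, had 61.3 ± 2.54 against 68.1 ± 9.56 (SD, n = 5 each). For the chaperones of class I assembly the means on the HFD and the control diet were 487 ± 21.8 against 512 ± 73.5 for PDIA3, 498 ± 39.4 against 511 ± 69.8 for CALR and 247 ± 15.6 against 225 ± 32.7 for CANX (SD, n = 5 each). Control rat 1 was the highest of the 10 rats for PSME1, PSME2, PDIA3 and CALR and the lowest for CANX in rescaled TPM. In TPM as deposited it was still the highest for PSME1 and the lowest for CANX, and was within the other rats for PSME2, PDIA3 and CALR. The log2 fold changes of these 5 genes lay between -0.10 and 0.05 without control rat 1.

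Of 17 class II genes, 3 were linked, CD74, RT1-DA and LGMN, and 0 had an unadjusted p under 0.05 by limma in all 10 rats, where 8.59% of all genes did. LGMN encodes legumain, an endosomal protease that takes part in antigen processing. It had 177, 127, 121, 142 and 124 in control rats 1 to 5 and 148, 146, 139, 151 and 146 in HFD-fed rats 1 to 5. Control rat 1 was above and 3 of the other control rats below every HFD-fed rat, while control rat 4 lay among them. The log2 fold change was 0.09 (limma adjusted p = 0.691), and without control rat 1 it was 0.18 with an unadjusted p of 0.00687 and an adjusted p of 0.284 by limma. In that fit 11.7% of all genes had an unadjusted p under 0.05.

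**Figure D4:**
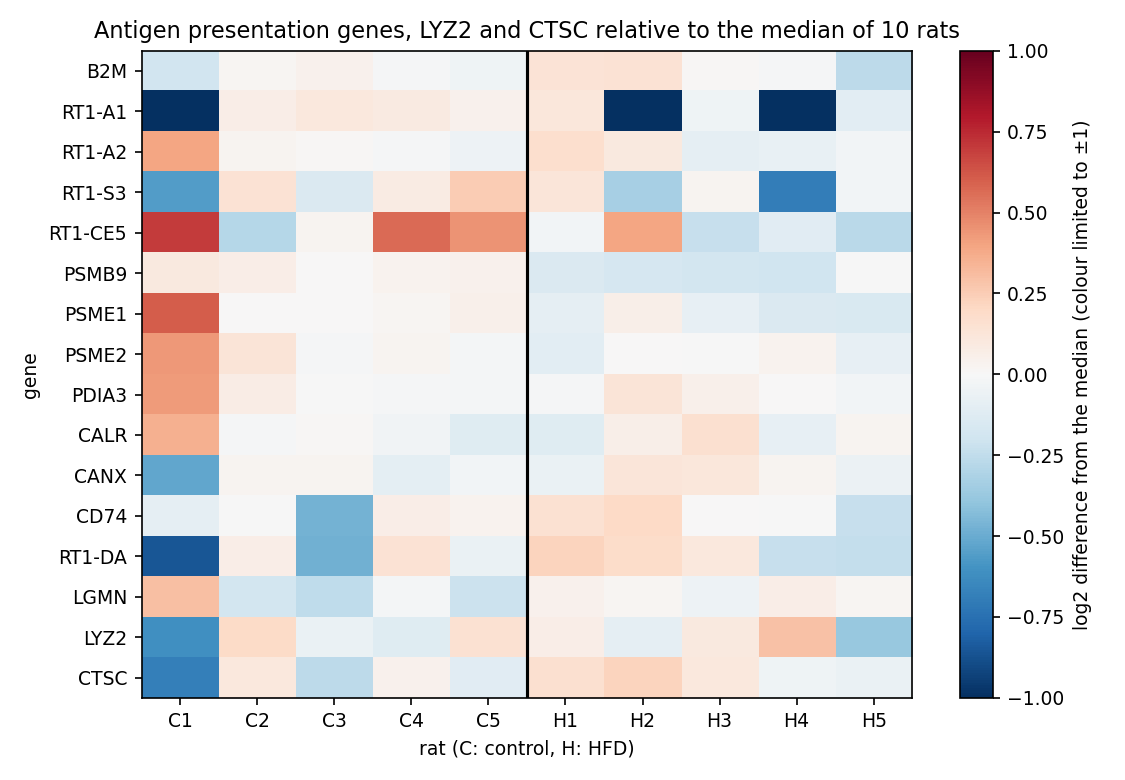
Log2 difference of each rat from the median of the 10 rats (colour, limited to ±1) for 16 genes (y axis: antigen presentation genes, LYZ2 and CTSC) in control rats C1 to C5 and HFD-fed rats H1 to H5 (x axis). RT1-DA, LYZ2 and CTSC are low in C1, while RT1-A1 is low in C1, H2 and H4.

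Macrophages were otherwise hardly covered, since 1 of 26 macrophage genes, LYZ2, was linked. A list of 16 genes held cathepsins, other lysosomal proteins and the protease inhibitors CST3 and CSTB, which macrophages and epithelium both use. Of these, 12 were linked and 0 had an unadjusted p under 0.05 by limma, where 8.59% of all genes did. Without control rat 1 the count was 1, LGMN, where 11.7% of all genes did. Their median log2 fold change was -0.05, with -0.03 without control rat 1, and turned to 0.06 in TPM as deposited. CTSC had the largest log2 fold change of the 12 in size, with 91.4 ± 18.5 in the control group and 108 ± 9.66 in the HFD group (SD, n = 5 each). The log2 fold change was 0.26 (limma adjusted p = 0.572), and 0.13 without control rat 1, in which CTSC stood at 63.2. For the 12 genes together control rat 1 was the lowest of the 10 rats for 2 and the highest for 7 in rescaled TPM, and the lowest for 6 and the highest for 1 in TPM as deposited.

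Of 22 interferon response genes, 6 were linked and 1, IFI35, had an unadjusted p under 0.05 by limma, where 8.59% of all genes did. The median log2 fold change of the 6 was -0.06, with -0.01 without control rat 1 and 0.04 in TPM as deposited. Control rat 1 was the highest of the 10 rats for 4 of the 6 in rescaled TPM and for 1 of them in TPM as deposited. IFI35 encodes an interferon-induced protein. It had 63.5, 50.6, 66.5, 51.9 and 62.6 in control rats 1 to 5 and 51.4, 45.4, 37.7, 44.8 and 40.8 in HFD-fed rats 1 to 5. HFD rat 1 lay above control rat 2, and the other 4 HFD-fed rats lay below every control rat. The log2 fold change was -0.42 ± 0.11 (standard error, limma unadjusted p = 0.00232, adjusted p = 0.542), and -0.39 without control rat 1 (adjusted p = 0.264). With TPM as deposited it was -0.32 (limma unadjusted p = 0.044). Of 22 genes of inflammatory cytokines and signalling, 1 was linked, NFKBIA, an inhibitor of NF-kappa-B, with a log2 fold change of 0.13 (limma adjusted p = 0.713), 0.05 without control rat 1 and 0.23 in TPM as deposited.

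Markers of other cells moved with control rat 1 as well. Of 12 epithelial markers, all linked, it was the lowest of the 10 rats for 8 and the highest for 4 in rescaled TPM, and the lowest for 9 and the highest for 1, TTR, in TPM as deposited. The mural cell marker RGS5, 1 of 7 on its list, was 42.8 rescaled TPM in that rat and 101 to 129 in the others. The stromal marker DCN, 1 of 6, was 116 against 139.7 to 231, and both markers were also lowest in that rat in TPM as deposited. The endothelial marker PLVAP, 1 of 7, was 97.5 against 51.1 to 67.2 in rescaled TPM, but 72.8 and thus within the 52.2 to 75.8 of the others in TPM as deposited. Of 6 blood genes, 4 were linked, and HBA-A1, the most abundant, was 4541 against 1677 to 3665 in rescaled TPM. HBA-A2 was likewise above the other rats on that scale, HBB and HBB-BS were within their range, and in TPM as deposited all 4 were within it. The 4 blood genes summed to 7803 rescaled TPM in control rat 1 and to 3102 to 6908 in the others. Their part in the low RT1-DA and LYZ2 of control rat 1 was not tested. No gene of the lists for T and NK cells, B cells, neutrophils, dendritic cells, mast cells or neural and ependymal cells was linked, and these cells were not analysed here.

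Between the diets, 1 of the 12 epithelial markers had an unadjusted p under 0.05 by limma, KL, with a log2 fold change of 0.27 (adjusted p = 0.565) and no overlap of the diets. The count was near the 8.59% of all genes with such a p, and 3.42% of all genes did not overlap. In TPM as deposited 0 of the 12 had such a p, where 5.11% of all genes did. KL there had a log2 fold change of 0.38 (limma unadjusted p = 0.0686) and again no overlap, where 1.65% of all genes had none. In rescaled TPM without control rat 1, KL (0.16) and AQP1 (-0.18) had such a p, where 11.7% of all genes did. Their limma adjusted p were 0.284 and 0.349. None of the mural, stromal, endothelial and blood genes had such a p. Their log2 fold changes were 0.36 for RGS5, 0.30 for DCN and -0.19 for PLVAP, with a median of -0.25 over the 4 blood genes. They were 0.09 for RGS5, 0.19 for DCN and -0.05 for PLVAP without control rat 1, with a median of -0.15 over the blood genes. IFI35, CTSC and these markers were named after their values were seen.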

How the data were processed

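Alignment to Rnor_6.0 was done by the authors with STAR (version 2.7.2a per the submitters' processing notes), and quantification with RSEM 1.3.3. The deposited values used were TPM. Deposited FPKM served only for the mean effective transcript length, from the ratio of TPM to FPKM, which weights transcripts by their abundance. Strand was not stated to be kept, so that antisense reads cannot be told apart.

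The scaling used 12037 genes. The diets were compared in limma 3.58.1 (R 4.3.3; lmFit, then eBayes with trend) on log2(rescaled TPM + 0.1), keeping genes averaging 1 or more and adjusting by Benjamini-Hochberg over all genes. Fold changes are on that scale. The authors used a count model, for which TPM are not suited.

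The rule for named genes took the listed genes, the linked genes of the class I, class II and macrophage lists with an unadjusted p under 0.05 or among the 6 most abundant, and the genes most alike in pattern (Pearson's r centred within diet). Other genes are named as such. The listed genes and all lists were chosen with earlier results of these data known. Names came from the study's tables (2015 identifiers), without 7 symbols that stood for several identifiers. The fold changes and p-values in those tables were not used. The result of 1 marker list is not reported here. Alternatives covered scaling, pseudocount, filter, weights, replicate block and each rat left out. Other steps used python 3.11.15, pandas 2.3.3 and matplotlib 3.10.9.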

Additional observations from a re-analysis of the deposited data

Results flagged for a closer look

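Values of the 5 rats on a diet were screened with Dixon's ratio, the distance of the extreme rat to its neighbour over the whole range, against a limit of 0.71. The limit was passed in 10 of 42 sets of values (about 1 in 20, or 2.1, would pass by chance if the sets were independent). They are not independent, since they come from the same rats and the 4 linked genes enter on both scales. The mean effective length and the scaling factor, screened as separate sets, were lowest in the same rats, control rat 1 and HFD rats 3 and 2. The scaling factor also enters all rescaled values, so that 2.1 is a rough guide only. In 9 of the 10 sets that passed, the extreme was control rat 1.

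Its scaling factor was 0.747, with 1.01 to 1.05 for control rats 2 to 5, and its mean effective transcript length was 789 bases, with 905 to 918 for those rats. B2M in TPM as deposited was 587 in it and 889 to 972 in control rats 2 to 5. In rescaled TPM, RT1-A1 was 9.21 in control rat 1 and 97.0 to 101 in control rats 2 to 5, and RT1-A2 was 85.2 and 62.3 to 65.9. PSME1 was 390.3 in control rat 1 and 257 to 266 in control rats 2 to 5, PDIA3 was 641 and 471 to 501, CALR was 632 and 454 to 497, and CANX was 169 and 226 to 247. In TPM as deposited, control rat 1 was within the range of the 9 other rats for RT1-A2, PDIA3 and CALR. Among HFD-fed rats, rat 5 had PSMB9 at 51.3, and rats 1 to 4 had 44.9 to 46.6.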

How the results depend on the processing

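Results were recomputed under 21 alternatives. None of the 4 linked genes had an unadjusted p under 0.05 in any of them, the lowest being 0.105 for RT1-DA, 0.128 for CD74, 0.179 for B2M and 0.282 for LYZ2. The log2 fold changes of B2M (0.00018 to 0.14), CD74 (0.02 to 0.22) and RT1-DA (0.07 to 0.35) stayed above 0. LYZ2 turned from 0.09 to -0.04 without control rat 1, to -0.03 without that rat in TPM as deposited, and to -0.0035 when mean effective length was added as a covariate, which was chosen after seeing the data. Leaving out each rat in turn gave -0.04 to 0.18 for LYZ2.

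By limma, 0 genes passed an adjusted p of 0.05 and 1048 an unadjusted p of 0.05. Adjusted calls were 1 without a filter on low values (ENSRNOG00000045684), 3 with array weights (METRN, FLNA and ENSRNOG00000052365) and 2 with the length covariate (ENSRNOG00000007159 and ENSRNOG00000052365), none a listed gene and all named after their values were seen. Genes with an unadjusted p under 0.05 numbered 624 in TPM as deposited, 619 for mean TPM from 10 (6272 genes tested) and 1874 with array weights. Leaving out each rat gave 793 to 1441, the most without control rat 1, and 0 adjusted calls. The cause was not tested.

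Replicate numbers are shared by the diets, but same-numbered rats deviated together with correlations of -0.038 to 0.116, and the numbers were taken as names alone. With the replicate block 1141 genes passed an unadjusted p of 0.05 and 0 an adjusted one, and the 4 genes had a median log2 fold change of 0.10. The depth reached is unknown, so counting error cannot be given.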
